A study of Mus musculus with 9 samples.

Results

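F4/80 (Adgre1), the surface protein by which mouse macrophages are commonly recognised, and 9 other macrophage receptors were read from RNA and 5-hydroxymethylcytosine (5hmC) data of Tet2 knockout (KO) and wild-type (WT) macrophages. The genes were chosen by name: Adgre1 and Adgre5 (F4/80 and CD97), Mertk, Axl and Timd4 (receptors for dying cells), Marco, Msr1 and Cd163 (scavenger receptors), Vsig4 (a complement receptor) and Siglec1 (CD169). All 10 were among the 47731 genes of the RNA table, and 5 of the 9151 listed 5hmC peaks overlapped the body of 4 of them. The RNA groups were 2 libraries of Tet2 Knockout macrophages and 3 of Wild-Type macrophages, and the 5hmC groups were 2 libraries of each genotype. All were macrophages at passage 0 given M-CSF, the growth factor on which macrophages depend. TET2 oxidises 5-methylcytosine in DNA to 5hmC. The labels name no strain, age or Cre driver, do not describe the knockout allele, and do not say whether libraries came from separate animals, so p-values reflect how much these libraries vary, and that variation may be technical.

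Macrophages take up dying cells, particles and altered proteins through families of surface receptors. MERTK and AXL are TAM receptor tyrosine kinases that see phosphatidylserine, a lipid exposed on dying cells, through the bridging proteins GAS6 and protein S, whereas TIM-4 (Timd4) binds the lipid itself. MARCO and MSR1 are class A scavenger receptors for bacteria and modified lipoproteins, and CD163 takes up haemoglobin bound to haptoglobin. F4/80 and CD97 are adhesion G protein-coupled receptors, VSIG4 binds complement C3 fragments, and SIGLEC1 binds sialic acids.

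The RNA libraries held 16053426 to 56394358 counts in genes and the 5hmC libraries 42489 to 219116 counts in listed peaks. Whole-gene Tet2 RNA stood at 227 and 122 normalised counts per 1000000 (CPM, per TMM-scaled library) in KO and at 103, 136 and 39.1 in WT, so it did not separate the genotypes, and whole-gene counts do not show the state of a deleted stretch. A feature of the RNA table, taken for a knock-in from the letters of its ID alone, had 1452 and 2245 counts in KO and 0 in each WT library. All 13 macrophage markers listed passed the filter on low counts, and their summed level was 13927 and 18119 normalised CPM in KO and 14628 to 34808 in WT. Summed stromal and osteoblast markers (12 listed, 7 past the filter) stood at 20.5 and 15.2 normalised CPM in KO and at 9.13, 7.36 and 5004 in WT, the last in replicate 3. Summed neutrophil markers (7 listed, 6 past the filter, Ly6g at 0 throughout) stood at 1.52 and 149 in KO and at 121, 8.44 and 1.72 in WT. Markers of B cells (5 of 6 past the filter) summed to 27.6 and 14.2 normalised CPM in KO and 10.8 to 62.8 in WT, those of T and NK cells (1 of 6) to 1.16 and 4.33 in KO and 5.26 to 37.3 in WT with Cd3e and Cd8a at 0, and those of dendritic cells (5 of 7) to 19.8 and 8.80 in KO and 2.05 to 4.70 in WT. The T and NK sum was almost all Cd4, at 1.16 and 4.21 in KO and 37.1, 5.17 and 6.43 in WT, a marker named after its values were seen. Megakaryocyte markers (4 of 5 past the filter) summed to 46.0 and 38.1 in KO and 80.8 to 250 in WT. Osteoclast markers (7 of 8) summed to 828 and 886 in KO and 304 to 1027 in WT. Within that sum, in markers chosen after their values were seen, Mmp9 stood at 752 and 632 in KO and at 1.57, 68.2 and 3.38 in WT, and Atp6v0d2 at 5.17 and 33.6 in KO and at 928, 152 and 226 in WT (edgeR adjusted p = 0.301 and 0.256; DESeq2 adjusted p = 0.00918 and 0.000594). None of 5 erythroid and 4 eosinophil and mast cell markers passed it, with sums of at most 0.204 and 2.11 normalised CPM and Hbb-bs, Alas2 and Mcpt4 at 0 throughout. The part of other cells in the results that follow was not tested, and in bulk libraries fewer cells of a type and less RNA per cell cannot be told apart.

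The comparison of RNA asked whether these receptors differ between KO and WT macrophages. Adgre1, Siglec1 and Marco were higher in both KO libraries than in all 3 WT libraries, and Mertk was lower, but none of the 8 receptors that could be tested passed an adjusted p of 0.05 in edgeR's quasi-likelihood test. Across all genes that test called 2 of 14851, or 0.0135%. Before adjustment 3 of the 8 had a p below 0.05, against 13.8% of all tested genes; 2 were higher in KO, against 5.95%, and 1 was lower, against 7.86%. DESeq2 called 2 of the 8, against 8.15% of all, and limma-voom called 0, against 0.00673%. With no filter on low counts edgeR called 0 of the receptors and 0.0116% of all genes, each of the called genes higher in KO. Timd4 and Vsig4 fell below the filter on low counts.

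**Figure D1:**
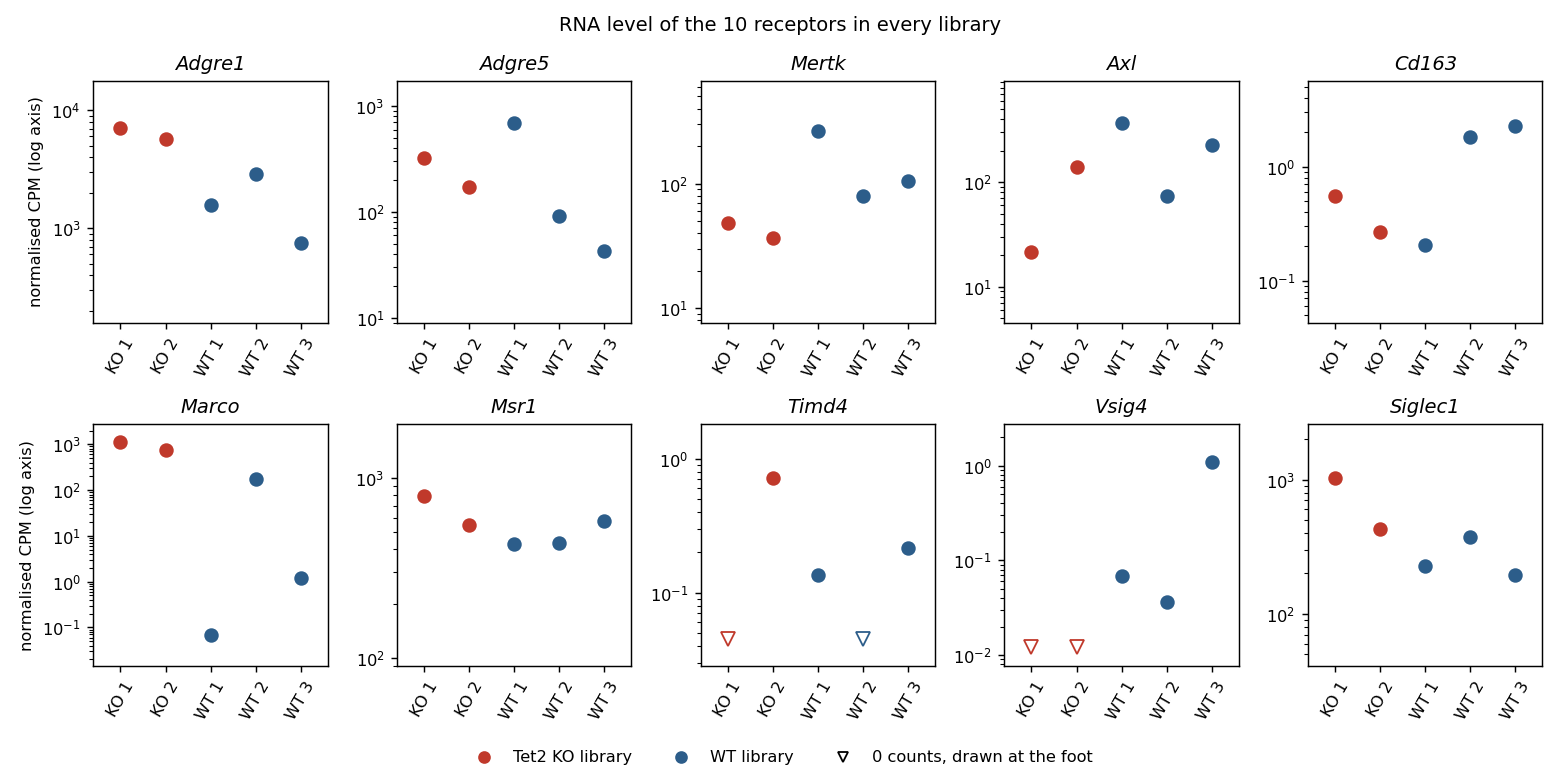
RNA level of each receptor in every library, in normalised CPM on a log axis whose range differs between panels, with the 2 Tet2 KO libraries left of the 3 WT libraries and open triangles for 0 counts. Marco spans the widest range, with 1100.0 and 735 normalised CPM in KO against 0.0682, 175 and 1.23 in WT.

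Adgre1 (ENSMUSG00000004730; GRCm38 chromosome 17, 57358581 to 57483529) encodes F4/80. Its RNA stood at 7077 and 5708 normalised CPM in KO and at 1582, 2902 and 757 in WT. Both KO libraries lay above all WT libraries, and WT replicate 2 came closest to them. The means were 6392 ± 968 in KO (SD, n = 2) and 1747 ± 1080 in WT (SD, n = 3), a fitted 3.66-fold difference (log2 1.87 ± 0.63, SE; edgeR adjusted p = 0.297). DESeq2 called it (log2 1.91, adjusted p = 0.0264). With any 1 library left out, the fitted log2 difference stayed between 1.51 and 2.45.

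Adgre5 (ENSMUSG00000002885; chromosome 8, 83723245 to 83741311) encodes CD97, whose ligand is the complement regulator CD55. It stood at 323 and 171 normalised CPM in KO and at 689, 91.3 and 42.9 in WT. The highest and the lowest library were both WT, 16.0-fold apart, and the KO libraries lay between them (log2 -0.15 ± 1.18, edgeR adjusted p = 0.966). The fitted direction rested on WT replicate 1, without which the log2 difference was 1.86 (edgeR adjusted p = 0.295), and it also turned with total-count scaling (log2 0.08). RefSeq places Adgre5 across part of Ddx39a, and Adgre1 across the predicted genes Gm18069 and Gm20243, so reads in shared stretches are uncertain.

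Siglec1 (ENSMUSG00000027322; chromosome 2, 131067801 to 131086778), the sialic acid receptor CD169, followed Adgre1 most closely among the receptors. It stood at 1032 and 427 normalised CPM in KO and at 229, 374 and 196 in WT. The groups did not overlap, but KO replicate 2 was 2.41-fold below KO replicate 1 and close to WT replicate 2. The fitted difference was 2.74-fold (log2 1.45 ± 0.48, edgeR adjusted p = 0.295). It shrank to a log2 of 0.69 without KO replicate 1, and DESeq2 did not call it (adjusted p = 0.0657).

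Marco (ENSMUSG00000026390; chromosome 1, 120474538 to 120505024) had the widest spread of the 10. Its counts were 18073 and 19375 in KO, and 1, 9577 and 74 in WT. In normalised CPM this was 1100.0 and 735 in KO and 0.0682, 175 and 1.23 in WT. Marco RNA was therefore near absent in WT replicates 1 and 3 and abundant in WT replicate 2, though both KO libraries were higher still. The fitted log2 difference was 3.96 ± 2.38 (edgeR adjusted p = 0.513), and DESeq2 gave no adjusted p. Without WT replicate 2 it was 10.24 (edgeR adjusted p = 0.107). The highest WT library stood 2570-fold above the lowest, a spread that 2.33% of all tested genes reached.

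Msr1 (ENSMUSG00000025044; chromosome 8, 39543232 to 39642750), of the same class as Marco, was the steadiest receptor. It stood at 796 and 547 normalised CPM in KO and at 430, 436 and 575 in WT. KO replicate 2 lay below WT replicate 3, so the groups overlapped (log2 0.48 ± 0.30, edgeR adjusted p = 0.520). The ratio of Marco to Msr1 counts, which does not depend on library scaling, was 1.38 and 1.35 in KO and 0.000159, 0.402 and 0.00214 in WT. That ratio was nearly equal in the 2 KO libraries and differed by orders of magnitude among the WT libraries.

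Mertk (ENSMUSG00000014361; chromosome 2, 128698915 to 128803162), a receptor for GAS6 and protein S on dying cells, ran the other way. It stood at 48.3 and 36.4 normalised CPM in KO and at 266, 80.1 and 105 in WT. Both KO libraries lay below all WT libraries, with means of 42.3 ± 8.37 in KO (SD, n = 2) and 150.0 ± 101 in WT (SD, n = 3). The fitted log2 difference was -1.83 ± 0.59 (edgeR adjusted p = 0.286), and DESeq2 called it (log2 -1.79, adjusted p = 0.0435). WT replicate 1 carried much of its size: without it the log2 difference was -1.17 (edgeR adjusted p = 0.269).

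Axl (ENSMUSG00000002602; chromosome 7, 25756500 to 25788924), the other TAM receptor of the list, differed between the KO libraries themselves. It stood at 21.5 and 139 normalised CPM in KO and at 371, 73.4 and 228 in WT. KO replicate 1 was the lowest of all libraries, while KO replicate 2 lay inside the WT range (log2 -1.48 ± 0.99, edgeR adjusted p = 0.552). The log2 difference was -0.68 without KO replicate 1 and -3.39 without KO replicate 2. The ratio of Mertk to Axl counts was 2.25 and 0.263 in KO and 0.717, 1.09 and 0.462 in WT, so the balance of the pair did not follow genotype.

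**Figure D2:**
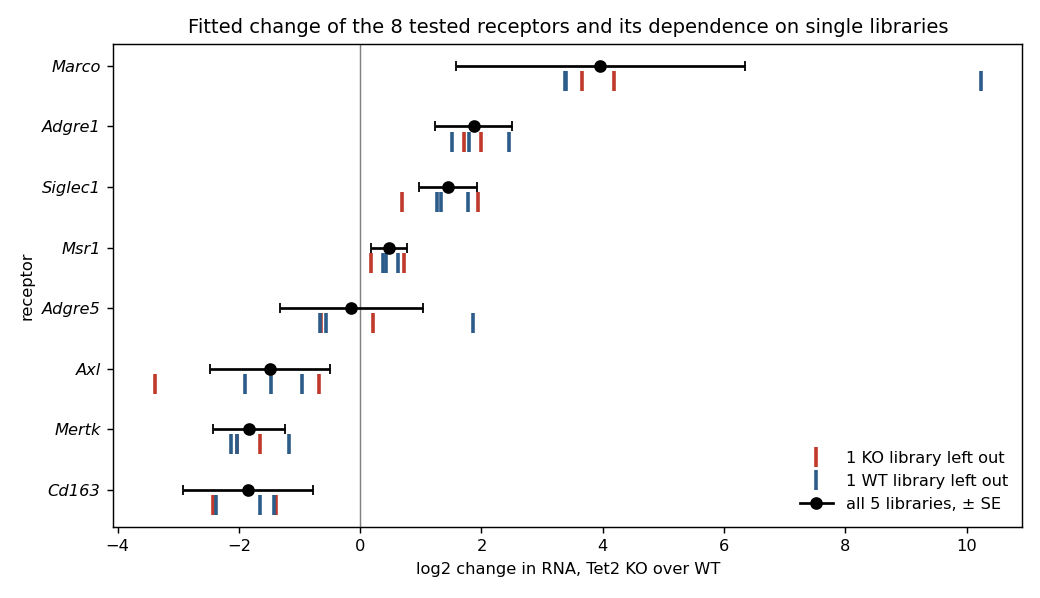
Fitted log2 change in RNA, Tet2 KO over WT, of the 8 tested receptors: black points and bars show edgeR's estimate ± SE from all 5 libraries, and ticks below them the estimate with 1 KO (red) or 1 WT (blue) library left out. Adgre5 crosses 0, the Axl estimates range between -3.39 and -0.68, and leaving out WT replicate 2 moves Marco to 10.24.

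Cd163, Timd4 and Vsig4 were scarce. Cd163 (ENSMUSG00000008845; chromosome 6, 124304636 to 124330529) had 9 and 7 counts in KO and 3, 98 and 135 in WT. That is 0.548 and 0.266 normalised CPM in KO and 0.204, 1.80 and 2.25 in WT, so WT replicates 2 and 3 were high and WT replicate 1 lay below both KO libraries (log2 -1.85 ± 1.07, edgeR adjusted p = 0.498). Timd4 (ENSMUSG00000055546; chromosome 11, 46810786 to 46844333) had 0 and 19 counts in KO and 2, 0 and 13 in WT. Vsig4 (ENSMUSG00000044206; chromosome X, 96247201 to 96293438) had 0 counts in both KO libraries and 1, 2 and 66 in WT. Neither was detectable in every library of a group above 3 counts, and for Vsig4 a count of 0 allows up to 0.183 and 0.114 normalised CPM in the KO libraries (counting error only). The 66 Vsig4 counts came from WT replicate 3, the library in which stromal and osteoblast markers summed to 5004 normalised CPM.

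Set side by side, 4 of the 8 tested receptors had no overlap between the genotypes, 3 of them with KO above WT and 1 with KO below, against 36.2% of all tested genes (17.2% above and 19.0% below). The share among the receptors is a count over few genes and is not far from that of all genes. The 8 divided into 4 with a higher and 4 with a lower fitted level in KO, where 48.4% of all tested genes were higher (5 and 3 with total-count scaling, where Adgre5 turns), with a median log2 of 0.17 beside -0.03 over all tested genes. Libraries of 1 genotype also differed among themselves. The highest WT library exceeded the lowest by 1.34-fold for Msr1, 1.91-fold for Siglec1, 3.32-fold for Mertk, 3.84-fold for Adgre1, 5.04-fold for Axl, 11-fold for Cd163 and 16.0-fold for Adgre5. The median of that spread over all tested genes was 1.77-fold. Between the 2 KO libraries the difference was larger than the WT spread for Msr1 (1.46-fold), Siglec1 (2.41-fold) and Axl (6.45-fold) and smaller for the other tested receptors. The WT spread covers 3 libraries and the KO difference 2, which by itself favours a larger WT spread.

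**Figure D3:**
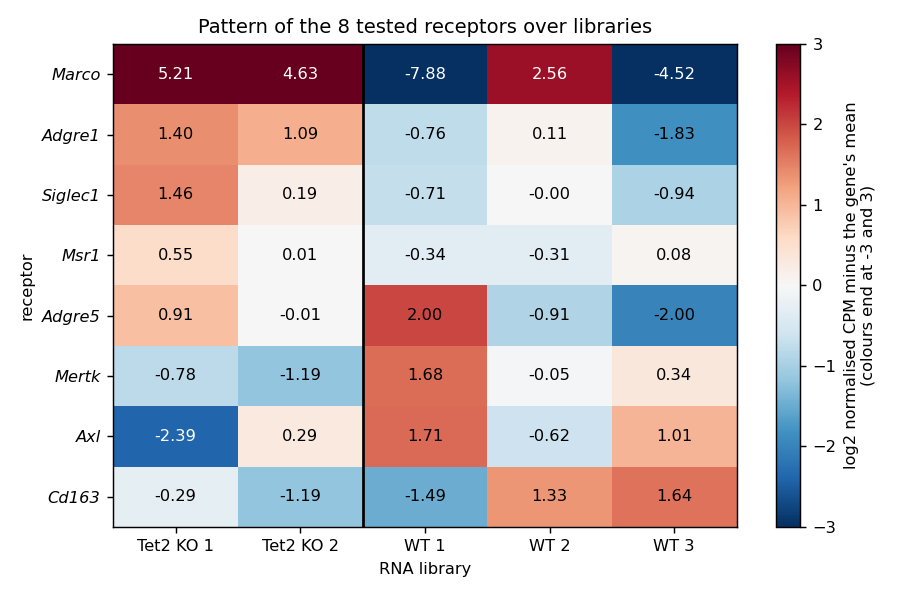
Level of the 8 tested receptors in each RNA library, as log2 normalised CPM minus the mean of the gene over the 5 libraries (colours end at -3 and 3), with the Tet2 KO libraries left of the line. Marco, Adgre1 and Siglec1 are highest in the KO libraries, while Mertk is lowest there and highest in WT replicate 1 at 1.68.

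The likeness of 2 patterns was measured as the root mean square difference of their centred log2 levels over the 5 libraries, where 0 means the same pattern. Levels were not scaled, so the size of the differences counts as well as the order of the libraries. Among the receptors Adgre1 and Siglec1 were closest at 0.57, then Msr1 and Siglec1 at 0.65 and Mertk and Axl at 1.05. Marco, whose centred levels ran from -7.88 to 5.21, stood at 4.27 or more from every other receptor. Among 12845 genes with a mean of at least 1 normalised CPM, Adgre1 was followed most closely by Ebi3, a cytokine subunit (0.07), Clec4a2, a C-type lectin receptor (0.08), and Aif1, a calcium-binding macrophage protein (0.13). Ebi3 stood at 93.8 and 77.9 normalised CPM in KO and at 20.8, 37.7 and 8.96 in WT. The gene nearest to Mertk was Mylip, a ubiquitin ligase of the LDL receptor (0.13), at 24.8 and 18.4 in KO and 124, 31.7 and 47.2 in WT. The gene nearest to Marco was Slc13a3, a dicarboxylate transporter (0.80), at 3783 and 2985 in KO and 0.477, 396 and 1.17 in WT, the same order of libraries. The nearest genes to the others were Mdm2 for Msr1 (0.05), Pde7b for Siglec1 (0.14), Eps8 for Cd163 (0.27), Nr1h3 for Adgre5 (0.32) and Steap3 for Axl (0.39).

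The ligands and partners of these receptors were examined through lists of related genes. Among 39 tested genes of phosphatidylserine bridging and engulfment, edgeR called 0 in either direction, and before adjustment 3 members higher in KO and 10 lower had a p below 0.05, beside 5.95% and 7.86% of all tested genes. With DESeq2 the calls were 1 higher and 9 lower, against 3.37% and 4.79% of all genes, and with limma-voom 0. The list had 28 members with a lower and 11 with a higher fitted level, and a median log2 of -0.71 beside -0.03 over all tested genes. Both KO libraries lay below all WT libraries for 14 members and above them for 4, beside 19.0% and 17.2% of all tested genes.

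Gas6, the bridging ligand shared by the TAM receptors, stood at 59.0 and 88.4 normalised CPM in KO and at 567, 437 and 965 in WT. The KO libraries were far below every WT library, yet the gene did not pass over all genes (log2 -3.15 ± 0.48, edgeR adjusted p = 0.162), while DESeq2 called it (adjusted p = 2.1e-08). Pros1, which encodes protein S, stood at 67.8 and 43.9 in KO and at 74.3, 77.3 and 103 in WT (log2 -0.61 ± 0.29, edgeR adjusted p = 0.417). Tyro3, the remaining TAM receptor, had at most 4.88 normalised CPM, in WT replicate 3, and at most 0.487 in KO. Mfge8, which bridges phosphatidylserine to integrins, stood at 10.5 and 20.5 in KO and at 683, 122 and 297 in WT (log2 -4.57 ± 0.91, edgeR adjusted p = 0.196; DESeq2 adjusted p = 5.1e-07). Itgb5, a subunit of an integrin that binds MFGE8, stood at 41.0 and 72.7 in KO and at 436, 196 and 305 in WT (edgeR adjusted p = 0.189). The genotypes did not overlap for Gas6, Mfge8 or Itgb5. Rxra, the nuclear receptor partner of LXR, stood at 20.1 and 30.7 in KO and at 179, 84.3 and 135 in WT, again without overlap (edgeR adjusted p = 0.173). Nr1h3, which encodes LXR alpha, a regulator of Mertk, overlapped between the genotypes at 61.7 and 46.9 in KO and 118, 26.0 and 12.1 in WT (edgeR adjusted p = 0.980).

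**Figure D4:**
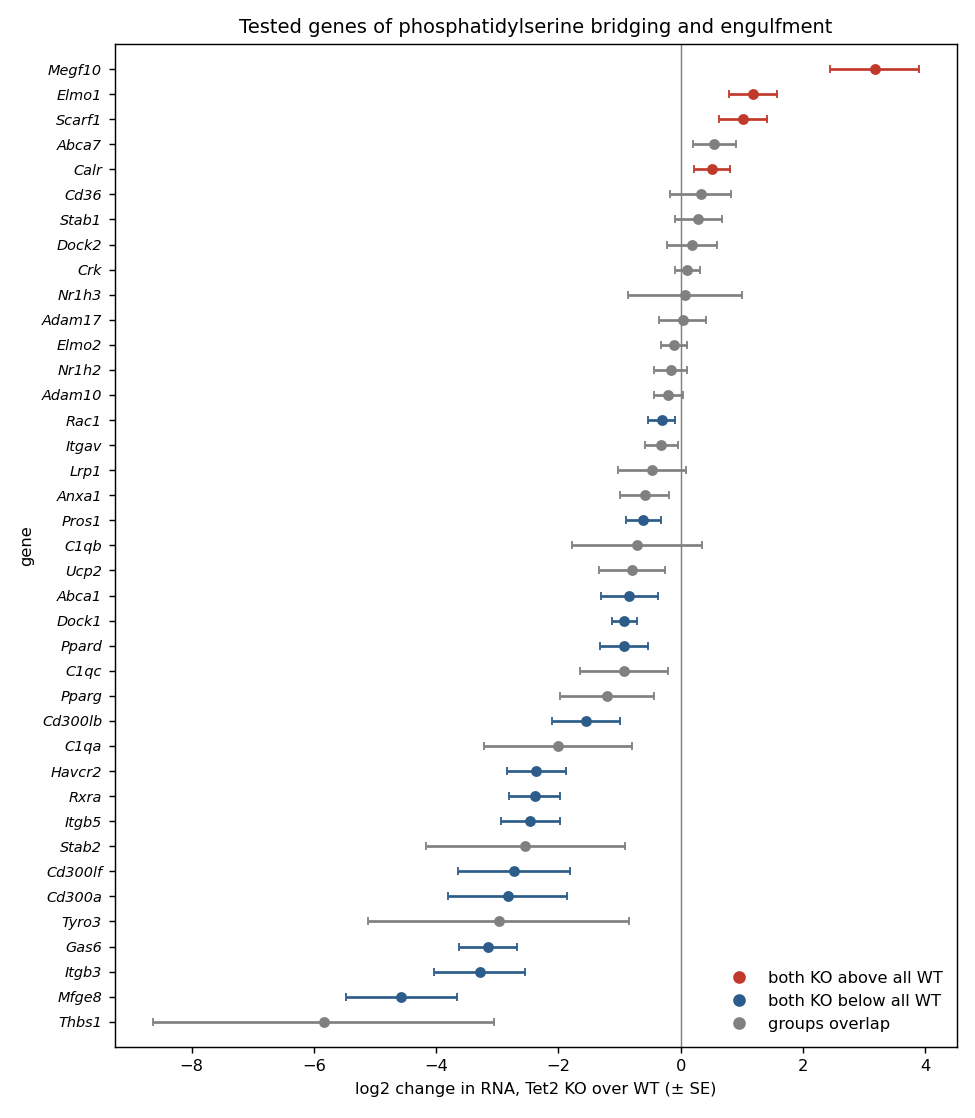
Log2 change in RNA, Tet2 KO over WT (± SE, edgeR), of the 39 tested genes of phosphatidylserine bridging and engulfment, with red where both KO libraries lay above all WT libraries, blue where both lay below, and grey where the groups overlapped. The 28 genes left of 0 include Gas6 at -3.15 and Mfge8 at -4.57, and none passed the adjusted threshold.

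Among 14 tested adhesion receptors and CD97 ligands, edgeR called 0, while 5 higher and 0 lower members had a p below 0.05 before adjustment, and the calls of DESeq2 were 5 higher and 0 lower. The shares over all tested genes were 5.95% higher and 7.86% lower with a p below 0.05 and 3.37% and 4.79% called by DESeq2. Cd55, the CD97 ligand, stood at 724 and 342 normalised CPM in KO and at 0.477, 28.6 and 1.63 in WT (log2 5.68 ± 1.71, edgeR adjusted p = 0.268). Its libraries stood in the same order as those of Marco, with WT replicate 2 the highest of its group. Itga5, an integrin subunit, stood at 250 and 195 in KO and at 98.9, 90.6 and 76.2 in WT (edgeR adjusted p = 0.173). Adgrl2 and Adgrb2, further adhesion receptors, had log2 differences of 1.39 ± 0.29 and 5.48 ± 1.18 (edgeR adjusted p = 0.199 and 0.2), with Adgrb2 at no more than 22.0 normalised CPM.

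Other scavenger receptors, several of them also on the engulfment list (Cd36, Stab1, Stab2, Lrp1, Scarf1 and Megf10), divided into 9 with a higher and 9 with a lower fitted level. In edgeR 0 of 18 were called, 4 higher and 5 lower members had a p below 0.05 before adjustment, and the calls of DESeq2 were 2 higher and 4 lower, beside the same shares over all genes (5.95% and 7.86%, and 3.37% and 4.79%). Clec7a, the beta-glucan receptor dectin-1, stood at 2.86 and 9.60 normalised CPM in KO and at 673, 123 and 184 in WT (log2 -5.70 ± 1.15, edgeR adjusted p = 0.197). The groups lay far apart. Scarb1, the HDL receptor, had a log2 difference of -0.96 ± 0.21 and Megf10, an engulfment receptor at no more than 2.62 normalised CPM, one of 3.17 ± 0.73 (edgeR adjusted p = 0.2 and 0.21).

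The remaining lists gave 0 calls in edgeR, and their counts stand beside 5.95% higher and 7.86% lower of all tested genes with a p below 0.05, and 3.37% and 4.79% called by DESeq2. Of 7 tested relatives of Siglec1, 0 were higher and 3 lower in KO with a p below 0.05 before adjustment (with DESeq2, 0 and 2 were called): Siglecf (log2 -2.59 ± 0.76), Cd22 (-3.18 ± 1.01), which also marks B cells, and Cd33 (-2.50 ± 0.91). Of 14 genes listed around CD163, for haem, iron and glucocorticoid response, 0 were higher and 4 lower by the same measure (with DESeq2, 0 and 3 were called), among them Tsc22d3, a glucocorticoid-induced gene and not one of haem or iron, at 24.4 and 25.1 normalised CPM in KO and 97.0, 47.8 and 87.2 in WT. Hpgd, which degrades prostaglandins and is likewise no haem or iron gene, and Blvra, a biliverdin reductase, had log2 differences of -3.73 ± 1.04 and -0.73 ± 0.23. Of 15 genes tied to resident or monocyte-derived macrophages, 3 were higher and 5 lower (with DESeq2, 3 and 5 were called). Itgax, the CD11c integrin, stood at 2.80 and 3.68 in KO and at 270.0, 162 and 66.3 in WT (edgeR adjusted p = 0.148). Spic, a transcription factor of red pulp macrophages, stood at 26.2 and 12.3 in KO and at 3.89, 1.47 and 1.25 in WT (edgeR adjusted p = 0.199). Clec4f and C6, named after their values were seen, had no count in any library.

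The 5hmC comparison asked whether the receptor genes carry listed peaks and whether these differ between KO and WT. Of the 10 receptors 4 held a listed peak, or 40.0%, against 16.6% of protein-coding genes and 25.8% of those within the length range of the receptors. The 5 peaks comprised 1 each in Adgre1, Adgre5 and Cd163 and 2 in Mertk. Those in Adgre1, Adgre5 and Mertk had been called in WT alone and that in Cd163 in both genotypes. Of all 9151 listed peaks, 7044 had been called in WT alone, 1151 in KO alone and 956 in both. No other annotated gene overlapped any of the 5 receptor peaks. Marco, Msr1 and Vsig4 had no listed peak within 100 kb, the nearest lying 208243, 1353158 and 252142 bases away. Such distances were not measured for genes beyond the receptors, and a relation of distance to RNA was not tested.

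All 5 peaks held too few counts to be tested under the filter, which left 859 peaks, 19.8% of them called (18.0% higher and 1.75% lower in KO). These directions are relative to the counts in listed peaks, so a change common to all peaks would not show. Peaks called in WT alone held 40900 and 41000 per 100000 peak counts in KO and 73500 and 77800 in WT. The counts of the KO pair differed less than sampling noise alone would give, and the pair was counted as 1 sample (chi-square per degree of freedom 0.57, against 1.2 for the WT pair). The Adgre1 peak (chromosome 17, 57359489 to 57359979) began 908 bases inside the gene and had 6 and 4 counts in KO and 6 and 38 in WT. Per 100000 peak counts this was 13 and 9.41 in KO and 14.1 and 17.3 in WT, with 95% exact binomial intervals that overlapped throughout. Adgre1, higher in RNA in KO, thus showed no 5hmC difference detectable at this depth.

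The Adgre5 peak (chromosome 8, 83735971 to 83736255) had 1 and 1 counts in KO and 2 and 23 in WT, or 2.16 and 2.35 per 100000 in KO and 4.69 and 10.5 in WT. The second Mertk peak (chromosome 2, 128718218 to 128718785) had 3 and 2 counts in KO and 3 and 33 in WT, or 6.49 and 4.71 per 100000 in KO and 7.03 and 15.1 in WT. Both shares were lowest in KO, and in both cases the single-library intervals of KO and WT overlapped. The first Mertk peak (chromosome 2, 128709896 to 128710172) had 4 and 3 counts in KO and 3 and 14 in WT, or 8.65 and 7.06 per 100000 in KO and 7.03 and 6.39 in WT. The Cd163 peak (chromosome 6, 124308901 to 124309356) had 8 and 5 counts in KO and 5 and 29 in WT, or 17.3 and 11.8 per 100000 in KO and 11.7 and 13.2 in WT. At the first Mertk peak both KO shares lay just above the WT shares, with overlapping counting intervals, and at the Cd163 peak the shares themselves overlapped.

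Fitted without a filter on low counts, 0 of the 5 peaks passed, against 4.75% of all 9151 (edgeR adjusted p between 0.507 and 0.964). Their log2 differences were -0.12 ± 0.67 for Adgre1, -1.59 ± 1.20 for Adgre5, 0.91 ± 0.86 and -1.14 ± 0.91 for the first and second Mertk peak and 0.51 ± 0.66 for Cd163 (SE). The fit used TMM scaling and a rounded KO mean, whereas the shares are per raw peak total. A fitted log2 difference therefore need not match the ratio of the shares. Summed over the 5 peaks, the receptors held 22 and 15 counts in KO and 19 and 137 in WT, or 47.6 and 35.3 per 100000 in KO and 44.5 and 62.5 in WT. These sums overlapped between the genotypes. A peak called in WT alone favours a higher WT share by the way it was called.

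**Figure D5:**
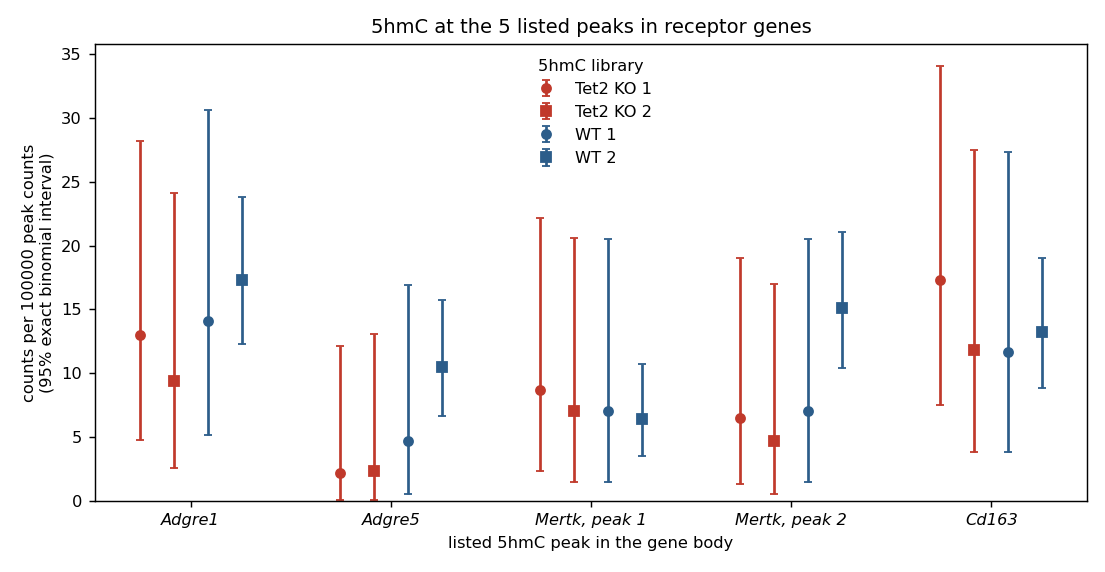
5hmC counts per 100000 counts in listed peaks at the 5 peaks within receptor genes, for the 2 Tet2 KO and the 2 WT libraries, with 95% exact binomial intervals for counting error. KO shares at the Adgre5 peak are 2.16 and 2.35 against 4.69 and 10.5 in WT, and the intervals of the genotypes overlap at every peak.

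Promoter sequences of Marco and Mertk are shown because their RNA lay on opposite sides and because 5hmC arises chiefly at CpG dinucleotides. Both are the 250 bases before the start of the gene from RefSeq (GRCm38.p6), given 5′ to 3′ on the strand of the gene, at chr1:120505025-120505274 on the minus strand for Marco and chr2:128698665-128698914 on the plus strand for Mertk. Capitals mark CpG dinucleotides and motif letters found by the search described next.
Marco: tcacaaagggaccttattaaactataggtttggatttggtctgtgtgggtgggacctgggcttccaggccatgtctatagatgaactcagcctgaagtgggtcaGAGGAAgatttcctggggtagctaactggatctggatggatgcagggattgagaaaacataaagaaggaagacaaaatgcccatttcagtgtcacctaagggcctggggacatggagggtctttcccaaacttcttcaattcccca
Mertk: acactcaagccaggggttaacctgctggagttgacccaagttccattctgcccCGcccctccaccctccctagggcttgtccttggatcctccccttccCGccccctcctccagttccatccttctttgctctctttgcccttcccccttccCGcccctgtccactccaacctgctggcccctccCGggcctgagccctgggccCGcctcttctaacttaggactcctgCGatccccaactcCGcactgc
The Marco window held 0 CpG dinucleotides and 47.6% G and C, the Mertk window 7 CpG dinucleotides and 63.6%, and the median of 32851 such windows 6 CpG dinucleotides and 52.4%. Both strands were searched for the letters TGTGGT (RUNX), GAGGAA (PU.1), TGANTCA (AP-1), TGCTGA (MAF) and the DR4 motif of LXR with RXR, none of which overlapped another in these windows. The capitals in Marco are its 1 match, GAGGAA, beginning 146 bases before the start, letters that 23.3% of all windows hold. Mertk held none of the 5, which 14.0% (RUNX), 23.3% (PU.1), 6.75% (AP-1), 16.1% (MAF) and 0.0152% (LXR with RXR) of windows hold. Of the 6 receptors with a promoter in the table, Axl held 1 and Vsig4 2 matches of GAGGAA, Timd4 held 2 of the MAF letters, and Cd163 held none. No listed 5hmC peak lay in any of these windows.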

How the data were processed

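The deposited RNA values are raw counts of reads in each gene (total RNA, ribosomal RNA removed, per the labels), and the deposited 5hmC values are raw counts in each listed peak (5hmC captured by biotin, per the labels). MACS2, BWA, STAR, HTSeq, Trim Galore and CASAVA 1.4 are named with GRCm38, per the submitters' processing notes; which tool made which table, the annotation release and the strand setting were not given in the sources used here. Without a stated strand, reads of overlapping genes cannot be told apart. Peak names show peaks called on merged libraries of each genotype. Groups and replicate numbers come from the sample titles.

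Symbols were matched by Ensembl ID (47224 of 47731), and gene bodies came from RefSeq, GRCm38.p6. Each assay was fitted over its whole table with edgeR 4.0.16 in R 4.3.3 (quasi-likelihood, TMM, filterByExpr, two-sided, Benjamini-Hochberg, threshold 0.05), KO over WT. The SE is the log2 change over the root of the F statistic. The 2 KO 5hmC libraries were entered as the mean of their counts, rounded to whole numbers. Normalised CPM are per 1000000 of the TMM-scaled library, and log2 levels use a prior count of 2. A peak belonged to a gene when 1 base overlapped. Floors are 3 counts. Fits were tested on simulated counts with 1 common spread per assay and with changes larger than most receptor differences. This does not show whether differences of the receptors' size would be found. Alternatives were DESeq2 1.42.0, limma-voom (limma 3.58.1), other scalings, no filter, leaving out single replicates and a block on replicate number. The receptors and gene lists were chosen with earlier results of these data known. Genes named from a list are its 3 with the smallest unadjusted p, beside Gas6, Pros1, Tyro3, Mfge8, Cd55 and Nr1h3, except 1 gene that is not reported here, and the genes of nearest pattern leave out predicted genes, clone names and pseudogenes. Depth in genes was 16053426 to 56394358 counts, and 42489 to 219116 in peaks, which limits 5hmC to counting intervals. No peak sequence was used here.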

Additional observations from a re-analysis of the deposited data

How the results depend on the processing

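Among all RNA genes edgeR called 2, and 0 with total-count scaling or the replicate block, 1 with limma-voom, 1211 with DESeq2 and between 0 and 0 with any 1 library left out. Among the receptors only DESeq2 made calls, 2 of them: Adgre1 (log2 1.91) and Mertk (log2 -1.79). Adgre5 turned direction with total-count scaling (log2 0.08), limma-voom (0.62) and without KO replicate 2 or WT replicate 1, its range with 1 library left out being -0.66 to 1.86; the cause was not tested. The other 7 tested receptors kept their direction in all 11 alternatives. Of the 10 receptors 5 had no overlap between genotypes (Vsig4 included), beside 36.2% of all tested genes. For Vsig4 this is not a measured separation. The KO floors of 0.183 and 0.114 normalised CPM lay above WT replicates 1 and 2 (0.0682 and 0.0366). With 1 library left out the count was 6 to 7, since fewer libraries overlap less easily, and the share over all genes was not computed there.

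Of all 5hmC peaks, edgeR called 170; the count was 435 with no filter on low counts and also with a minimum of 10 counts over the libraries, 20 with DESeq2, 303 with the KO libraries as 2 samples and 258 with a replicate block added to that. Leaving out a WT replicate left no residual degrees of freedom with KO as 1 sample, so it was run with KO as 2 samples, an alternative chosen after seeing the data, and gave 503 without WT replicate 1 and 331 without WT replicate 2. The receptor peaks entered the tests only with no filter and with the minimum of 10 counts, and the receptor gene sums only with no filter, and none was called there; adding 2 kb on both sides of a gene brought in no further peak. The replicate numbers showed no pairing of the RNA libraries (correlations of deviations 0.001 and -0.124). For 5hmC the correlation was -0.016, which is 1 value for both numbers because each genotype had 2 libraries. The KO pair also differed less than sampling noise, so pairing in 5hmC could not be judged. Each receptor peak had fewer than 10 counts in each KO library, which limits the 5hmC comparison.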
